A study of Mus musculus with 12 samples.

Results

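The middle turn of the wild-type mouse cochlea was compared with the basal turn by RNA-seq, which reads the transcripts of a whole piece of tissue at once. The members of the comparison were those with 1 FPKM or more in 2 or more of the 4 wild-type middle and basal libraries. FPKM are fragments scaled to transcript length and to the number of mapped fragments, so transcript length and library size are already divided out. Of the 37432 genes in the deposited table, 14287 met this rule. Another 1588 genes reached 1 FPKM in exactly 1 of the 4 libraries and 21557 in none of them, including 5756 that were listed at 0 in all 4.

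The series holds 12 libraries from wild-type and *Gjb2* 35delG homozygous mice at P14, with 2 biological repeats for each of the apical, middle and basal turns. The wild-type animals were purchased males of the same age as the mutants. The homozygous males came from tetraploid complementation, in which the whole animal stems from embryonic stem cells. They were born by cesarean section and had ICR foster mothers. Their libraries are set beside the wild-type difference below. All 12 libraries also entered the scaling and the main fit, whose spread between repeats is pooled over the 6 groups. Each cochlea had been cut into 3 equal sections, and neither the labels nor the methods give the number of mice behind a library. Since it is not stated whether the middle and basal sections came from the same animals, the p-values below measure only the spread between these libraries.

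The cochlea is a coiled duct in which sound of high pitch is detected near the base and sound of low pitch near the apex. Along the whole coil, the organ of Corti holds inner and outer hair cells among supporting cells, the spiral ganglion holds the neurons that carry the signal to the brain, with their Schwann cells, and the stria vascularis and the fibrocytes of the lateral wall keep the potassium-rich endolymph. A piece of the coil also takes along bone of the otic capsule, blood, and at its edges tissue that does not belong to the duct. In such bulk samples, fewer cells of a type and less RNA of that type per cell cannot be told apart.

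The repeats of the basal turn differed more from each other than those of the middle turn, and this touches every result. On log2(scaled FPKM + 1) of the 14287 genes, the Euclidean distance was 64.2 between the middle repeats and 98.7 between the basal repeats. The 4 distances between a middle and a basal library averaged 92.3 and ran from 78.0 to 110.6. The middle repeats differed over 2-fold for 728 genes and the basal repeats for 2005, against 155 for the apical repeats. Neither basal library had its own repeat as the nearest of the 11 others. The first lay nearest to the second homozygous middle library, at 66.3, and the second nearest to the first homozygous middle library, at 66.4. Wild-type basal and homozygous middle libraries were 76.6 apart on average, and wild-type middle and homozygous basal libraries 84.5, while the wild-type middle and homozygous middle libraries were 99.0 apart and the basal libraries of the 2 genotypes 123.9. Thus each of these wild-type groups was nearer to the other turn of the other genotype than to its own turn there. The groups are used here as labelled. Whether the turn labels of one genotype were exchanged, which would turn the sign of every middle minus basal value of that genotype, was not tested. The FPKM of the 4 libraries summed to between 331399 and 408162, which is not a depth, and the sequencing depth behind them is unknown. Mitochondrial transcripts took 13.8% and 20.6% of the sum in the middle and 8.86% and 17.1% in the basal libraries.

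**Figure D1:**
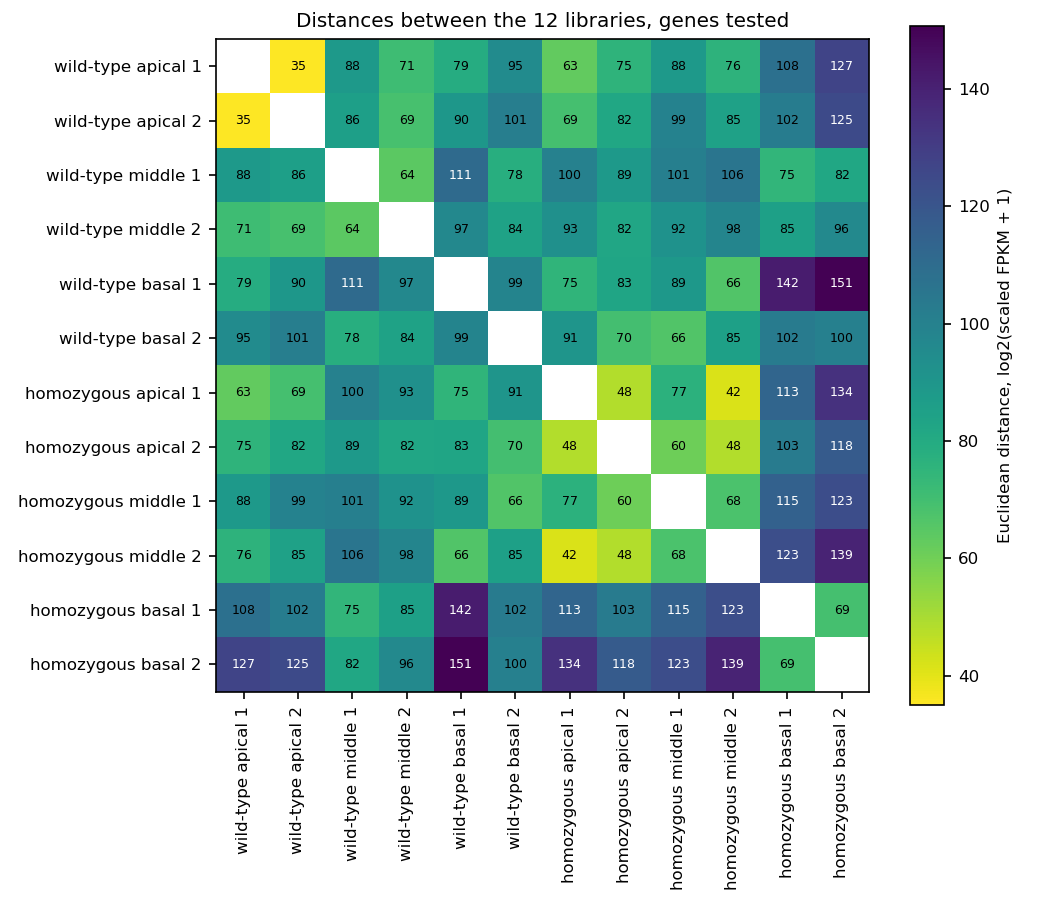
Euclidean distances between the 12 libraries on log2(scaled FPKM + 1) over the 14287 genes tested, with the value printed in each cell and darker cells farther apart. The wild-type basal repeats are 98.7 apart, and each is nearest to a homozygous middle library, at 66.3 and 66.4.

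No gene passed the study's thresholds between the middle and basal turns. With limma on the scaled log2 values, 0 of 14287 genes (0%) had an adjusted p under 0.01 together with a fold change over 2. At an adjusted p under 0.05, 1 gene passed, *Pou3f1*, and at an unadjusted p under 0.05 there were 2349 genes. That fit drew its spread from all 12 libraries, and with only the 4 libraries fitted the latter count was 1407. Of the genes with an unadjusted p under 0.05 and a fold change over 2, 696 (4.87%) were higher in the middle turn and 193 (1.35%) in the basal turn. These 2 counts rest on the basal libraries, with 417 and 419 genes without the first and 1148 and 427 without the second. Both middle libraries lay above both basal libraries for 2888 genes (20.2%), and both lay below for 3172 genes (22.2%). These shares are the background for the counts of the gene groups given below, and with 2 libraries on each side an exact permutation test of a single value cannot go below p = 0.333. The median log2 difference over all genes was −0.03.

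Among the genes that did not overlap and had at least 5 scaled FPKM in the higher turn, the 12 of smallest p in the middle turn included 4 genes known from Schwann cells and myelin. *Pou3f1* encodes a POU-domain transcription factor of Schwann cells that are about to myelinate. It had 5.78 and 6.46 scaled FPKM in the middle libraries, a mean of 6.12 ± 0.480 (SD, n = 2), and 1.13 and 0.981 in the basal libraries, a mean of 1.05 ± 0.102. Its log2 difference, middle minus basal, was 1.79 (standard error 0.167, adjusted p = 0.0363), and the groups stood well apart. *Prx*, which encodes the myelin scaffold protein periaxin, had 87.6 and 111 in the middle and 34.9 and 19.0 in the basal libraries (log2 difference 1.90, standard error 0.258, adjusted p = 0.0613). *Dhh*, a Schwann cell signal to the sheath of the nerve, had 5.11 and 6.79 against 1.71 and 1.19 (log2 difference 1.502, adjusted p = 0.0613). *Ndrg1*, which is mutated in an inherited demyelinating neuropathy, was the most abundant of the 12, with 265 and 232 against 83.2 and 81.0 (log2 difference 1.58, adjusted p = 0.0613). That these 4 genes do not overlap between the turns follows from the rule that chose them, and the basal repeats lay farthest apart in *Prx*. *Pou3f1* lies on chromosome 4 from 124656807 to 124660655 and *Prx* on chromosome 7 from 27499324 to 27520214 (GRCm38).

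The rest of the 12 are less tied to one cell type. *Gpr155* encodes a lysosomal membrane protein and had 20.6 and 20.7 in the middle against 5.75 and 7.99 in the basal libraries. *Itgb8*, an integrin subunit, had 25.9 and 28.9 against 10.6 and 11.1. *Tmod4*, a tropomodulin best known from muscle, had 6.82 and 10.7 against 1.64 and 1.70. In each of them the higher basal library was well below the lower middle library. *Prss12*, the serine protease neurotrypsin, and *Galnt16*, an enzyme that starts O-linked glycans, had log2 differences of 1.48 and 1.45. For *Fam178b*, *Kank4* and *Plekha4* they were 1.77, 1.13 and 1.81. The adjusted p of the 11 genes other than *Pou3f1* lay between 0.0613 and 0.0635. The wild-type apical libraries lay between the middle and the basal libraries for 11 of the 12 genes. The same count over all genes that did not overlap was not made.

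The 12 genes of smallest p that were higher in the basal turn are more varied. Their log2 differences ran from −1.53 to −0.71, while those of the 12 genes above ran from 1.13 to 1.90. *Met*, the receptor of hepatocyte growth factor, had 5.25 and 5.31 scaled FPKM in the middle and 17.4 and 16.8 in the basal libraries (log2 difference −1.53, standard error 0.283, adjusted p = 0.0959). *H2-K1*, a heavy chain of MHC class I, had 41.0 and 46.0 against 99.8 and 85.0 (log2 difference −1.07, adjusted p = 0.0847). *S100a11*, a calcium-binding protein, had 65.7 and 64.2 against 130.1 and 142 (log2 difference −1.05, adjusted p = 0.0959). That the turns do not overlap in these genes follows from the rule that chose them. *Vamp8*, a SNARE of endosomes and secretory granules, had 75.7 and 77.4 against 147 and 138. *Nupr1*, a nuclear protein of the stress response, had 69.6 and 91.3 against 148 and 164. *B4galt1*, a galactosyltransferase of the Golgi, had 11.2 and 10.4 against 19.7 and 21.1. None of these 3 reached an adjusted p under 0.05 (0.0959, 0.0959 and 0.0847). *Drc1*, a part of the regulatory complex of motile cilia, and the centrin gene *Cetn4* had log2 differences of −1.53 and −1.19, and in both the second basal library was the highest, with 7.20 and 8.74. *Bricd5*, *Ninj1*, which acts in the rupture of dying cells, and the DNA repair genes *Rbbp8* and *Rhno1* had −1.295, −0.90, −0.74 and −0.71. Adjusted p over the 12 genes ran from 0.0613 to 0.102. The apical libraries lay between the middle and the basal libraries for 7 of these 12 genes, again without a count over all genes.

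**Figure D2:**
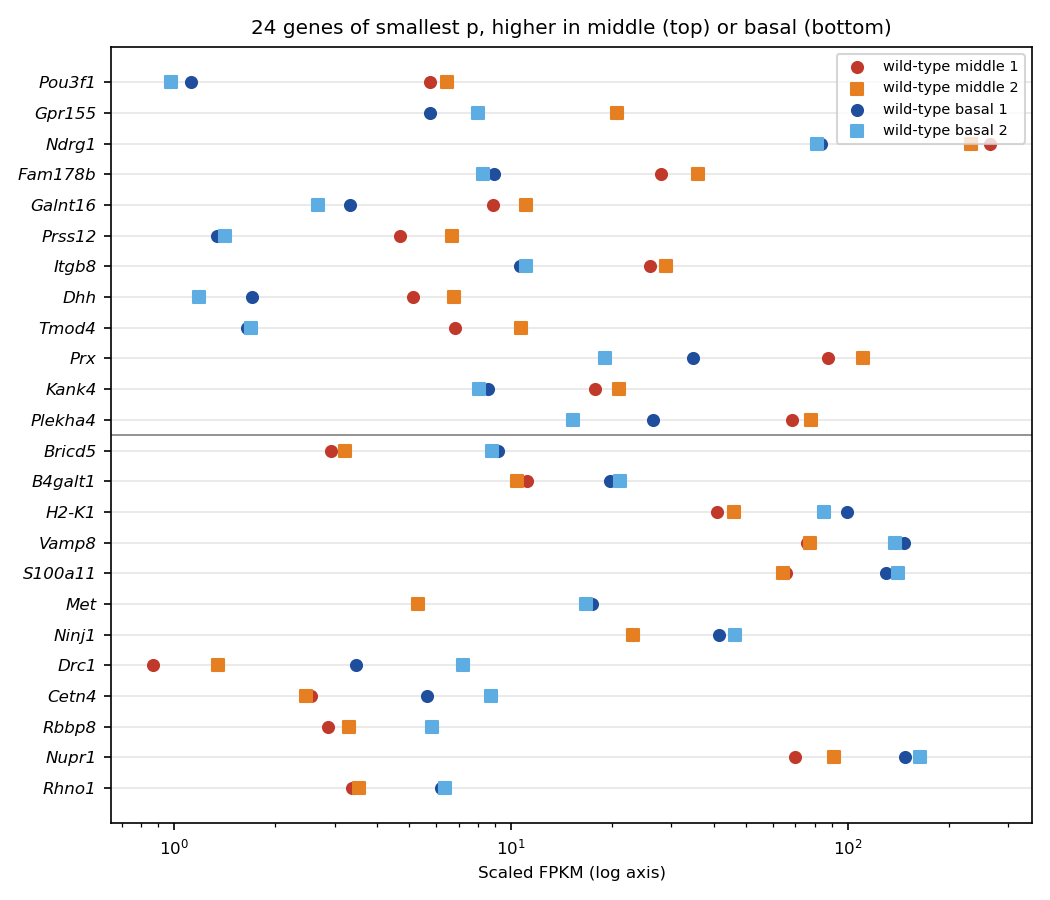
Scaled FPKM (log axis) of the 12 genes of smallest p in each direction in the 2 middle (red and orange) and 2 basal (dark and light blue) wild-type libraries, one point per library. The middle and basal points of each gene do not overlap, as the rule for choosing them requires, and the basal repeats of *Pou3f1* sit at 1.13 and 0.981.

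Most of the Schwann cell and myelin genes listed were higher in both middle libraries. Of 30 genes listed, all 30 were tested, 19 were higher in both middle libraries than in both basal libraries, beside 20.2% of all genes, and 0 were lower in both. In 19 an unadjusted p under 0.05 went with a fold change over 2 and a higher middle turn, beside 4.87% of all genes. The median log2 difference was 1.65. *Pmp22*, a protein of compact peripheral myelin, had 1149.9 and 2101 scaled FPKM in the middle and 486 and 535 in the basal libraries (log2 difference 1.61, adjusted p = 0.132). *Egr2*, the transcription factor that switches on the myelin genes, had 7.66 and 11.9 against 2.698 and 3.21 (log2 difference 1.42, adjusted p = 0.0635). For *Cldn19* (claudin of the Schwann cell sheath), *Drp2* (a partner of periaxin) and *Gjc3* (a connexin of myelinating cells), the log2 differences were 2.05, 2.07 and 2.003. These peripheral genes, picked after their values were seen, all separated the turns. *Sox10*, which all Schwann cells and strial melanocytes express, did not, with 85.5 and 69.5 against 112 and 45.9. Of the 30 genes, 4 had a negative log2 difference. *Mal*, *Mobp* and *S100b* stand in both this list and that of central glia below. The most abundant member, *Mbp*, belongs to central as well as peripheral myelin. It had 11823 and 1156 in the middle and 328 and 3249.6 in the basal libraries, which overlapped, and the first middle and the second basal library were the high ones. The summed level of the 30 genes, in which *Mbp* weighs heavily, overlapped too. It was 23249.5 and 7627 in the middle and 2795 and 8253 in the basal libraries. With each of the 4 libraries left out in turn, the median of the list lay between 1.11 and 1.70.

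The 250 bases before the RefSeq starts of the list (GRCm38.p6) were searched for the POU octamer ATGCAAAT, the core GCGTGGG of EGR binding sites and the core ACAAAG of SOX binding sites, on both strands. RefSeq windows were matched by symbol for 20 of the 30 genes, with 35 windows. The octamer was in 4 of the 35 windows (11.4%), 3 of which are overlapping starts of *Egr2*, against 1.6% of all 32851 windows and 1.17% of the 13645 windows of the genes tested. The EGR core was in 2 of them (5.71%), against 4.3% of all windows and 7.2% of those of the genes tested, and the SOX core in 7 of the 35, against 16.5% and 12.2%. The windows of *Prx* and *Egr2*, which hold the octamer, and of *Ncmap*, a myelin protein of peripheral nerve, which holds the EGR core, are shown because *Pou3f1* and *Egr2* encode factors of these 2 kinds. They are written with the matches in capitals, 5′ to 3′ on the strand of the gene. *Prx* holds both, with the octamer 233 and the EGR core, on the other strand, 161 bases before the start. The octamer of *Egr2* begins 127 bases before the start, and the EGR core of *Ncmap* 35 bases before it. A match is a description of the letters and not a site shown to be bound. The windows are chr7:27499074-27499323 (plus strand) for *Prx*, chr10:67537619-67537868 (plus strand) for *Egr2* and chr4:135385673-135385922 (minus strand) for *Ncmap*.
Prx: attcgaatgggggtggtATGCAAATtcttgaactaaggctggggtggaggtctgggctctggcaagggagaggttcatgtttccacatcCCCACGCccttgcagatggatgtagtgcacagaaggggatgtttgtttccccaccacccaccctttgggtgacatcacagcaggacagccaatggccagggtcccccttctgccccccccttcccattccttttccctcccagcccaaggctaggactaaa
Egr2: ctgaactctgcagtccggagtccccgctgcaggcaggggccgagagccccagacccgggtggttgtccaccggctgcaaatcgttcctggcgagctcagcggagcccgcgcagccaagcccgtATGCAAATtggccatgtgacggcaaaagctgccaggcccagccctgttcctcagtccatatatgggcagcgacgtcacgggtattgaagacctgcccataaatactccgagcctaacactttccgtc
Ncmap: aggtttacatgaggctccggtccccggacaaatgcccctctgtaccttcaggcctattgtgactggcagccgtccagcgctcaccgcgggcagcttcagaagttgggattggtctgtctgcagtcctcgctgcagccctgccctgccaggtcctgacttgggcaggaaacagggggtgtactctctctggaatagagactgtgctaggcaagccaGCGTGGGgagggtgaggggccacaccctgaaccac

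Beside these letters stand the levels of the 3 genes. *Prx* and *Egr2* separated the turns with the values given above, and *Ncmap* had 104 and 226 scaled FPKM in the middle and 94.7 and 32.5 in the basal libraries (log2 difference 1.45, standard error 0.518, adjusted p = 0.208). The first middle library was only a little above the first basal library in *Ncmap*.

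Genes of the spiral ganglion neurons had the largest median difference of the 36 lists, 2.19 on the log2 scale. Of 46 genes listed, 45 were tested. Both middle libraries were above both basal libraries for 38 of them and below for 1 (*Pcp4*), and 31 had an unadjusted p under 0.05 with a fold change over 2, all higher in the middle turn. The calcium-binding protein gene *Calb2* had 885 and 1358 scaled FPKM in the middle and 33.6 and 139.8 in the basal libraries (log2 difference 3.97, standard error 0.833, adjusted p = 0.107). *Pvalb*, which encodes parvalbumin, had 511 and 733 against 35.3 and 250.01 (log2 difference 2.68, adjusted p = 0.270). *Stmn3*, a regulator of microtubules in axons, had 337 and 503 against 2.55 and 197 (log2 difference 3.96, adjusted p = 0.280). The middle repeats lay close together in these genes, and the basal repeats far apart.

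Several neuronal genes were near 0 in the first basal library. The neurofilament gene *Nefh* had 309.5 and 311 in the middle libraries and 0.596 and 141 in the basal ones. *Slc17a7*, the vesicular glutamate transporter of these neurons, had 83.7 and 72.7 against 0.0271 and 14.1. In both of them the second basal library held an appreciable level below the middle turn, and the first held next to none. The neuronal genes *Kcnc1*, *Rbfox3*, *Pou4f1* and *Grm8* were listed at 0 in the first basal library, and at 8.74, 3.13, 1.65 and 0.448 in the second. The summed level of the 45 genes was 4711 and 5860 in the middle and 372.8 and 2298 in the basal libraries. Without the first basal library the median log2 difference was 1.04 and without the second it was 2.96, so the size of this difference rests on the first basal library while its direction does not. In other members both basal libraries lay below the middle turn by like amounts. The potassium channel gene *Kcna1* had 34.4 and 61.4 against 8.81 and 7.95 (log2 difference 2.33, adjusted p = 0.0959). *Map1b*, a microtubule protein, had 110.3 and 101 against 42.0 and 40.9 (log2 difference 1.33, adjusted p = 0.139). The transcription factor gene *Prox1*, which marks both neurons and supporting cells, had 7.67 and 4.66 against 0.280 and 1.01 (log2 difference 2.13, adjusted p = 0.115).

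Synaptic vesicle and SNARE genes followed the neurons. Of 42 listed, 39 were tested, 30 were higher in both middle libraries and 3, *Vamp2* and *Syngr1* among them, lower, and the median log2 difference was 1.75. At an unadjusted p under 0.05 and a fold change over 2, 27 were higher in the middle turn and 0 were higher in the basal turn. *Snap25*, a SNARE of the presynaptic membrane, had 353 and 444 in the middle and 2.17 and 158 in the basal libraries. *Cplx1*, which clamps SNARE complexes until calcium arrives, had 224 and 226 against 1.10 and 97.6. *Vamp1*, a SNARE of the vesicle, had 173 and 231 against 17.6 and 65.2 (log2 difference 2.52, adjusted p = 0.115). The ubiquitous *Vamp2* went the other way, with 58.0 and 53.8 against 81.3 and 62.6 and a log2 difference of −0.35. With single libraries left out, the median of the list lay between 0.99, without the first basal library, and 2.59, without the second.

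Of 38 voltage-gated potassium and sodium channel genes, 27 were tested, 17 were higher in both middle libraries and 3, *Kcna10* and *Kcnq1* among them, in both basal libraries, and the median log2 difference was 1.02, with 0.41 under no filter and 2.13 under a filter of 5 FPKM. At an unadjusted p under 0.05 and a fold change over 2, 14 were higher in the middle turn and 1, *Kcna10*, was higher in the basal turn. *Kcnab2*, an accessory subunit of potassium channels, had 70.6 and 67.9 scaled FPKM in the middle and 0.858 and 24.5 in the basal libraries. *Kcna10* and *Kcnq1* are known from hair cells and the stria rather than from neurons. *Kcna10* had 2.22 and 6.96 against 11.9 and 12.2, and *Kcnq1*, the potassium channel of strial marginal cells, had 2.90 and 3.54 against 7.70 and 27.2.

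Genes of cholesterol synthesis, which myelin growth draws on, were also higher in the middle turn, by less. All 24 were tested, 14 were higher in both middle libraries and 0 in both basal libraries, 4 had an unadjusted p under 0.05 and a fold change over 2, and the median log2 difference was 0.79. *Hmgcs1*, which makes HMG-CoA, had 183 and 73.7 in the middle and 21.4 and 64.8 in the basal libraries. *Fdft1*, the squalene synthase, had 27.1 and 25.6 against 13.1 and 13.9 (log2 difference 0.92, adjusted p = 0.117). The first middle library was the highest and the first basal library the lowest for most of them, and without the first middle library the median was 0.26, and without the first basal library 0.51.

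Markers of central glia did not divide by turn but by library. Of 26 genes of oligodendrocytes and astrocytes, 25 were tested, 2 (*Mal* and *Bcas1*) were higher in both middle libraries and 1 (*Fgfr3*) in both basal libraries. *Gfap*, the filament of astrocytes, had 366 and 0.817 scaled FPKM in the middle and 1.35 and 122 in the basal libraries. *Mog*, found in central myelin alone, had 211 and 1.95 against 0.622 and 73.8, and *Mobp*, which is likewise central, had 639.7 and 3.65 against 1.16 and 175. For these 3 markers the first middle and the second basal library were high and the other 2 near 0. The defining markers *Olig2* and *Klk6* were listed at 0 in the first basal library. The summed level of the 25 genes, which is carried in part by *S100b* and *Cldn11* of other cells, was 4143 and 1325 in the middle and 1649 and 3140 in the basal libraries. The median log2 difference was 0.51, and it ran from −1.04 without the first middle library to 2.03 without the second. Without the first middle library, in which the 3 markers were highest, the medians of the neuronal and of the Schwann cell genes were 2.39 and 1.12. The second basal library, which remained, held these markers too, and the part of central tissue in the 2 medians was not tested.

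**Figure D3:**
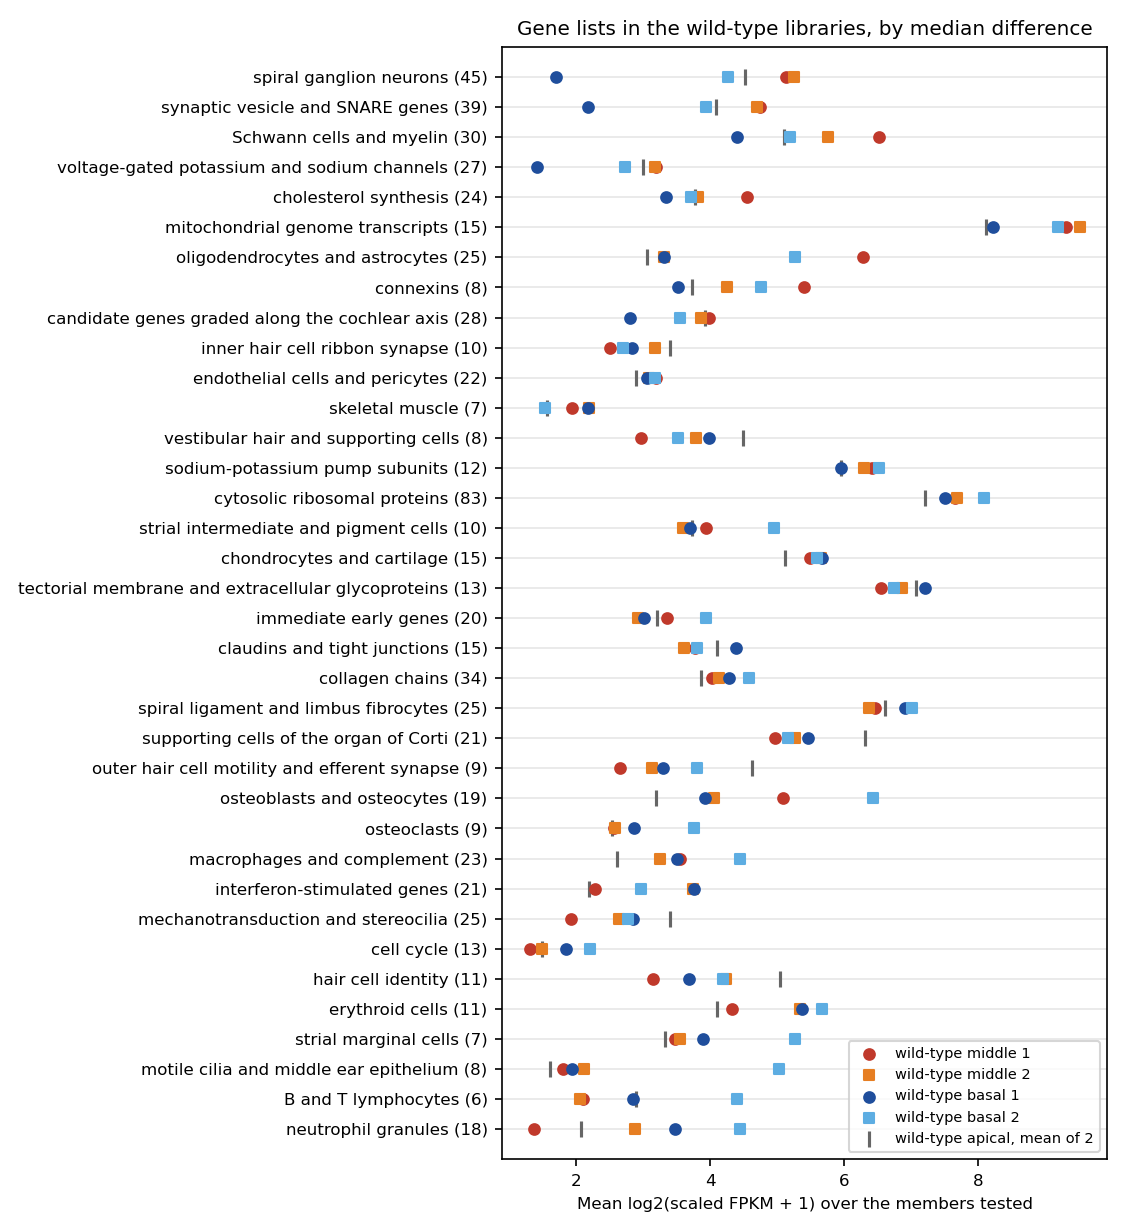
Mean log2(scaled FPKM + 1) over the tested members (number in brackets) of 36 gene lists in the 2 middle (red and orange) and 2 basal (dark and light blue) wild-type libraries, with the mean of the 2 apical libraries as a bar, ordered by the median log2 difference of the members. The first basal library lies far to the left for neuronal lists, the second basal library far to the right for strial, osteoblast, lymphocyte and ciliated lists, and the first middle and second basal libraries both lie to the right for central glia.

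Genes that define hair cells leaned to the basal turn, apart from 2 that neurons share. Of 13 listed, 11 were tested, 6 were higher in both basal libraries and 2 (*Calb2* and *Pvalb*) in both middle libraries, and the median log2 difference was −0.67. *Gfi1*, a transcription factor that hair cells need to survive, had 0.566 and 2.36 scaled FPKM in the middle and 4.64 and 8.56 in the basal libraries (log2 difference −1.68, standard error 0.363, adjusted p = 0.109). *Espn*, which bundles the actin of stereocilia, had 1.78 and 5.90 against 10.2 and 16.0 (log2 difference −1.65, adjusted p = 0.128). *Ocm*, the calcium buffer oncomodulin of outer hair cells, had 0.345 and 20.2 against 21.2 and 46.6 (log2 difference −2.61, adjusted p = 0.279). The first middle library was the lowest in each of these genes, and the second middle library lay next below the first basal one. *Myo6*, a myosin of hair cells that other cells also express, had 36.6 and 40.6 against 47.8 and 32.4 and a log2 difference of −0.03. *Pou4f3*, which specifies hair cells, had 2.63 and 8.195 against 13.3 and 7.77 and overlapped. Without the first middle library the median of the list was −0.29, and without the second it was −0.93.

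The genes of mechanotransduction and the stereocilia behaved alike. Of 30 listed, 25 were tested, 9 were higher in both basal libraries and 1, *Clrn1*, in both middle libraries, and the median log2 difference was −0.58, with −0.23 without the first middle library. These counts stand beside the 22.2% of all genes that were higher in both basal libraries. *Tmc1*, the channel subunit, had 0.520 and 4.14 in the middle and 6.52 and 3.81 in the basal libraries, which overlapped (log2 difference −1.10, adjusted p = 0.341). *Ush1c*, the scaffold harmonin at the upper tip link, had 11.8 and 18.6 against 32.4 and 42.5 (log2 difference −1.26, adjusted p = 0.149). *Loxhd1*, a membrane protein of stereocilia, had 0.265 and 1.86 against 2.12 and 7.44, and the tip link gene *Cdh23* had 0.549 and 2.27 against 3.35 and 1.74. In *Loxhd1*, as in *Ush1c*, the second basal library was the highest, while in *Cdh23* and *Tmc1* it was the first. *Cib2* and *Triobp*, which with *Ush1c* are the most abundant of the list, had log2 differences of −0.12 and −0.33.

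Genes of the inner hair cell ribbon synapse were mixed. All 10 were tested, 5 were higher in both middle libraries and 2 in both basal libraries, and the median log2 difference was 0.20, with −0.095 without the second middle and 0.60 without the first middle library. *Otof*, the calcium sensor otoferlin of transmitter release, had 9.42 and 25.2 in the middle and 32.2 and 20.7 in the basal libraries, which overlapped. *Slc17a8*, which fills the vesicles of inner hair cells with glutamate, had 4.79 and 24.3 against 28.2 and 4.94 and so differed more between repeats than between turns. *Cabp2*, a calcium-binding regulator of the synaptic calcium channel, had 4.31 and 16.7 against 27.9 and 31.6 (log2 difference −1.66, adjusted p = 0.133). The active zone genes *Bsn*, *Pclo* and *Rims2*, which neurons use as well, were the ones higher in both middle libraries together with *Kcnma1* and *Cacnb2*, and *Rims2* had 5.50 and 5.32 against 3.05 and 2.37.

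Of 12 genes of outer hair cell motility and the efferent synapse, 9 were tested, 5 were higher in both basal libraries and 2 (*Tmem63b* and *Kcnn2*) in both middle libraries, and the median log2 difference was −0.38, with −0.20 without the first middle and −0.19 without the first basal library. *Chrna10*, a subunit of the nicotinic receptor at the efferent synapse, had 0.0373 and 1.23 in the middle and 1.86 and 8.95 in the basal libraries (log2 difference −1.81, adjusted p = 0.170). *Sri*, the most abundant member, had a log2 difference of −0.14. The 3 members that were not tested, *Slc26a5*, which encodes the motor protein prestin, *Chrna9* and *Strc*, reached 1 FPKM only in the second basal library. *Slc26a5* had 0.0255 and 0.876 in the middle and 0.594 and 1.44 in the basal libraries.

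Supporting cell genes were mixed. Of 23 listed, 21 were tested, 7 were higher in both basal libraries and 2 in both middle libraries, and the median log2 difference was −0.38, with −0.21 without the first and −0.64 without the second basal library. At an unadjusted p under 0.05 and a fold change over 2, *Hey2* and *Prox1* were higher in the middle turn and *Emilin2* in the basal turn. *Emilin2*, an extracellular matrix protein, had 23.0 and 20.8 scaled FPKM in the middle and 106 and 89.9 in the basal libraries (log2 difference −2.11, standard error 0.596, adjusted p = 0.139). *Fgfr3*, a receptor of pillar and Deiters' cells, had 5.13 and 6.87 against 12.5 and 10.3 (log2 difference −0.83, adjusted p = 0.159). *Hey2*, a Notch effector of pillar cells, was higher in the middle turn, with 8.85 and 13.9 against 2.67 and 3.52 (log2 difference 1.57, adjusted p = 0.0635), as was *Prox1*. *Emilin2*, *Fgfr3* and *Hey2* did not overlap between the turns, but they were picked after their values were seen. *Ceacam16*, a tectorial membrane protein and the most abundant member, had 1397 and 1172 in the middle and 2268 and 397 in the basal libraries, so that its basal repeats differed more than the turns. *S100a1* had 664 and 754 against 1253 and 1056, and *Fbxo2* had 592 and 817 against 1233 and 705.

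The connexins of the cochlear gap junctions are made by supporting cells and fibrocytes. *Gjb2*, which encodes connexin 26 and is intact in these mice, had 139.7 and 268 scaled FPKM in the middle and 434 and 256 in the basal libraries, and the groups overlapped (log2 difference −0.78, standard error 0.468, adjusted p = 0.461). It lies on the minus strand of chromosome 14 from 57098600 to 57104702 (GRCm38). *Gjb6*, its neighbour from 57123303 to 57133611, encodes connexin 30 and had 124 and 176 against 292 and 271, lower in both middle libraries (log2 difference −0.92, standard error 0.276, adjusted p = 0.149). Of 19 connexin genes, 8 were tested and their median log2 difference was 0.48, but it was −0.26 without the first middle and −0.14 without the first basal library, and 1.80 and 1.94 without the second ones. The ones higher in both middle libraries were *Gjc3*, named above among the myelin genes, and *Gjd2*, the connexin of electrical synapses, with 11.50 and 9.05 in the middle libraries, 2.50 in the second basal library and a listed 0 in the first. *Gja1* had 57.3 and 5.12 against 4.85 and 78.2, high in the same 2 libraries as the glial markers.

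Tectorial membrane and other matrix glycoproteins had a median log2 difference of −0.30, or −0.51 without the second middle library, over 13 genes tested of 15, with 6 higher in both basal libraries and 0 in both middle libraries. *Otog*, which encodes otogelin, had 10.1 and 11.6 in the middle and 15.5 and 24.1 in the basal libraries (log2 difference −0.78, adjusted p = 0.299). *Otos* and *Col2a1*, with *Ceacam16* the most abundant, overlapped with log2 differences of −0.12 and 0.25. *Otoa*, the glycoprotein that fixes the membrane to the limbus, had 90.5 and 88.9 against 192 and 32.1, and its basal repeats lay on either side of the middle ones.

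Some genes of the stria vascularis were found almost only in the second basal library, while others were present in all 4. Of 9 genes of its marginal cells, 7 were tested, 4 were higher in both basal libraries and 0 in both middle libraries, and the median log2 difference was −1.06, or −0.72 without the second and −1.43 without the first basal library. *Kcne1*, the partner of *Kcnq1* in the strial potassium channel, missed the filter because it reached 1 FPKM in the second basal library alone, where it was at 60.8 scaled FPKM, against 0.431 in the first middle library and a listed 0 in the other 2. *Atp1b2*, a pump subunit, had 142 and 88.8 in the middle and 197 and 278 in the basal libraries. *Slc12a2*, the sodium, potassium and chloride transporter, had 65.2 and 54.3 against 40.3 and 162. *Lrp2* overlapped too, with a log2 difference of −0.42. Several pigment genes of strial intermediate cells had the same pattern. *Dct* had 5.59 and 1.64 against 1.03 and 442, and *Mlana*, *Slc45a2* and *Trpm1* were at 30.2, 24.8 and 19.7 in the second basal library and at most 0.501 in the other 3. Of 17 intermediate cell genes, 10 were tested, with 2 higher in both middle libraries and 3 in both basal libraries. Their median was −0.16 with all libraries and 0.17 without the second basal library. *Kcnj10*, the potassium channel of intermediate cells and glia, overlapped, with 61.6 and 25.4 against 32.4 and 65.8.

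Fibrocyte genes of the spiral ligament and limbus leaned slightly to the basal turn. All 25 were tested, 8 were higher in both basal libraries and 1, *Atp1b1*, in both middle libraries, and the median log2 difference was −0.34. *Coch*, whose product cochlin is the main protein of the ligament, had 3848 and 5353 in the middle and 4020.4 and 3115 in the basal libraries, which overlapped. *Apod* and *Otos* had log2 differences of −0.22 and −0.12. *Aldh1a2*, which makes retinoic acid, had 7.02 and 5.16 against 19.4 and 17.2 (log2 difference −1.46, adjusted p = 0.182). Of the sodium-potassium pump subunits and their regulators, 12 of 15 were tested, with 3 higher in both middle libraries, 2 in both basal libraries and a median of −0.10, which was 0.18 without the first and 0.12 without the second basal library. *Atp1b1*, a beta subunit, had 408 and 509 against 298 and 388, and *Fxyd6* had a log2 difference of 0.49. Claudins and other tight junction genes had a median of −0.33 over 15 of 16, with 4 higher in both basal libraries and 0 in both middle libraries. The median was −0.095 without the first and −0.91 without the second basal library. The most abundant, *Cldn11*, *Cldn9* and *Tjp1*, had log2 differences of −0.29, −0.50 and −0.26.

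Bone genes stood out in the second basal library. *Bglap* and *Bglap2* are near-identical copies of the osteocalcin gene of osteoblasts, and their reads may be split between them. *Bglap* had 25.8 and 2.17 scaled FPKM in the middle and 4.11 and 1102 in the basal libraries, and *Bglap2* had 12.7 and 1.91 against 3.01 and 524. *Col1a1*, the main collagen of bone, had 15.1 and 7.01 against 10.8 and 315. The second basal library exceeded the others many times over in these genes. The bone matrix gene *Spp1* was high in all 4 libraries, with 1471 and 2036 against 855 and 2807. Of 22 genes of osteoblasts and osteocytes, 19 were tested with 4 higher in both basal and 0 in both middle libraries and a median log2 difference of −0.43, which was 0.85 without the second and −1.06 without the first basal library. Of 15 osteoclast genes, 9 were tested, 6 were higher in both basal libraries and 0 in both middle libraries, and their median of −0.52 was −0.28 without the second and −0.83 without the first basal library. *Ctsk*, the bone-resorbing protease, had 17.7 and 18.9 against 21.8 and 50.2. *Car2* and *Clcn7* had log2 differences of −0.52 and −0.21. Cartilage genes had a median of −0.24, or 0.086 without the first basal library, over 15 of 20, with 1 higher in both middle libraries (*Hapln1*) and 3 in both basal libraries, and *Cnmd*, *Col2a1* and *Ucma* overlapped. Of 37 collagen chains, 34 were tested, with 4 higher in both middle libraries, 7 in both basal libraries and a median of −0.34, which was −0.13 without the first middle and −0.14 without the first basal library, and *Col1a2* had 299 and 318 against 277 and 559.

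All 18 neutrophil granule genes tested, of 20 listed, were higher in both basal libraries than in both middle libraries, beside 22.2% of all genes, yet 0 of them reached an unadjusted p under 0.05 together with a fold change over 2. Their median log2 difference was −1.90, the lowest of the 36 lists. *S100a8*, a subunit of calprotectin, had 12.4 and 81.5 scaled FPKM in the middle and 150.5 and 827 in the basal libraries, and *S100a9*, its partner, had 15.4 and 93.8 against 158 and 902. *Ngp* had 7.27 and 30.5 against 44.2 and 113. From the lowest to the highest library the summed level of the 18 genes was 52.1, 287.6, 493.3 and 2207, with both middle libraries below both basal ones. In these sums the repeats of each turn lay farther apart than the higher middle and the lower basal library. *Fcnb*, *Ctsg* and *Ms4a3* were listed at 0 in the first middle library, and the wild-type apical libraries differed as well, with a mean log2 level of 3.04 and 1.11. Without the first middle library the median was −1.09.

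Other blood genes lay on the same side. Of 20 erythroid genes, 11 were tested, 6 were higher in both basal and 2 (*Tfrc* and *Ank1*) in both middle libraries, and the median log2 difference was −0.81, with −0.52 without the first library of either turn and −1.42 and −1.47 without the second middle and the second basal library. The beta-globin gene *Hbb-bs* had 309 and 881 in the middle and 1757 and 3404 in the basal libraries, and *Hba-a1* and *Hba-a2*, near-identical copies of alpha-globin between which reads cannot be divided with certainty, had log2 differences of −2.08 and −1.93. Of 20 genes of B and T lymphocytes, 6 were tested and 5 were higher in both basal libraries, with 12.5 and 15.1 against 17.3 and 85.5 for *Ighm* and 2.24 and 2.03 against 8.26 and 29.9 for *Igkc*. *Ebf1*, which mesenchymal cells express too, had a log2 difference of 0.17. The list's median was −1.74, with −0.77 without the second and −2.78 without the first basal library, and 7 more members reached 1 FPKM only in the second basal library. All 23 genes of macrophages and complement were tested, 7 were higher in both basal and 0 in both middle libraries, beside 22.2% of all genes, and the median was −0.52, with −0.12 without the second and −0.86 without the first basal library. *Lyz2* had 48.8 and 68.9 against 87.1 and 462, and *Ctss* and *Tyrobp* were likewise highest in the second basal library, with 110.3 and 124. Of 29 cell cycle genes, 13 were tested and 11 were higher in both basal libraries, 0 with an unadjusted p under 0.05 and a fold change over 2. Their median was −0.62, which a filter of 5 FPKM brought to −0.0038, and *Mki67*, the marker of dividing cells, had 0.234 and 0.763 against 1.25 and 3.49. A gene under 1 FPKM in both middle libraries, as *Mki67* was, passed the filter only by reaching 1 FPKM in both basal libraries. The count of 11 is therefore partly set by the filter. *Mcm6* and *Cdc20* had log2 differences of −0.55 and −0.47, and 11 more members reached 1 FPKM only in the second basal library. The part of blood and bone in other differences of the basal turn was not tested.

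Markers of ciliated and secretory cells of middle ear type were high in the second basal library. *Bpifa1*, a secreted protein of airway and middle ear epithelium, had 0.401 and 9.37 scaled FPKM in the middle and 7.82 and 3416 in the basal libraries. Of 27 genes of motile cilia and this epithelium, 8 were tested, 4 were higher in both basal libraries and 0 in both middle libraries, and 11 more reached 1 FPKM only in the second basal library. *Foxj1*, the master regulator of motile cilia, had 5.16 and 3.11 against 0.230 and 14.6. *Tppp3* had 84.2 and 34.8 against 11.2 and 65.1, and *Cfap126* had 0.670 and 1.09 against 0.377 and 21.5. The summed level of the 8 genes was 95.4 and 54.6 in the middle and 32.3 and 3561 in the basal libraries, and the median log2 difference was −1.45 with all libraries and −0.35 without the second and −2.26 without the first basal library. *Drc1* and *Cetn4*, named above, are genes of the same organelles and were also highest there. The markers of vestibular hair and supporting cells gave a median of −0.07, or −0.57 without the second basal library, over 8 of 12, with *Otop1* higher in both middle libraries and *Ocm* and *Anxa4* in both basal libraries. The values were 16.8 and 32.0 against 63.7 and 3.99 for *Oc90*, an otoconial protein and the most abundant member.

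Over the whole table the second basal library had the most genes to itself. Of the 1588 genes that reached 1 FPKM in a single library, 738 did so in the second basal library, 465 in the first basal library, 203 in the second and 182 in the first middle library. Both middle libraries and neither basal library reached 1 FPKM for 173 genes, and the reverse was true of 282 genes. Such genes passed the filter only through the turn where they were high, so their lack of overlap largely follows from the filter.

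**Figure D4:**
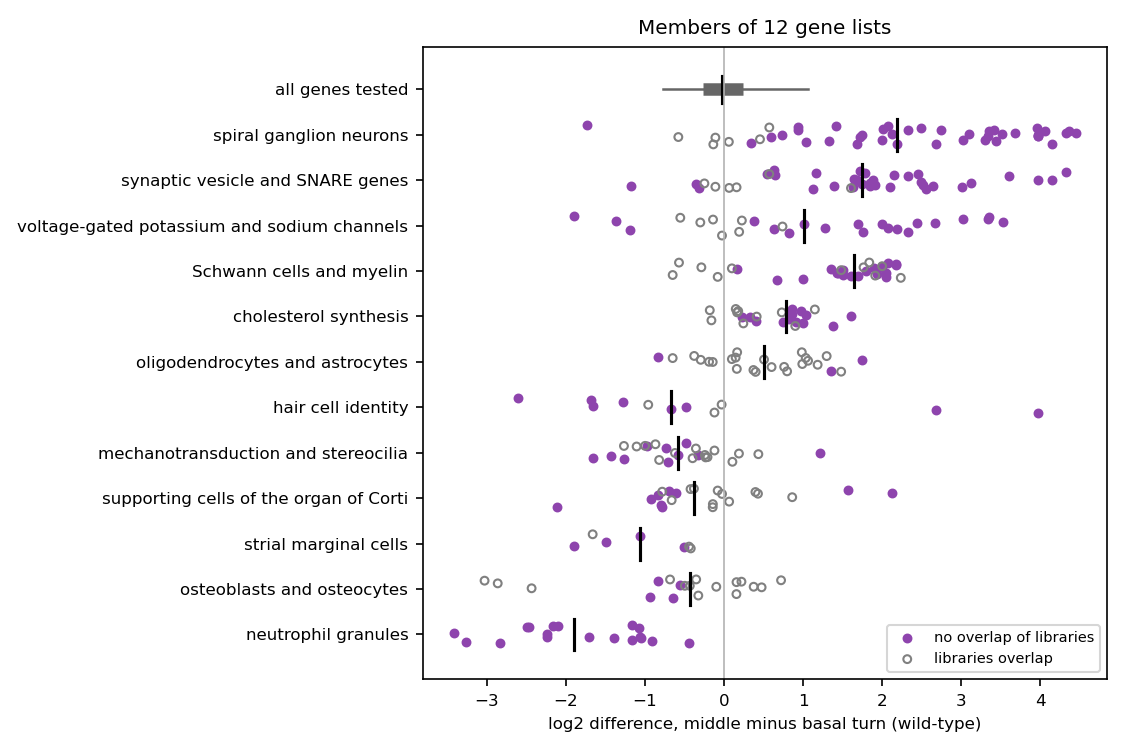
Log2 difference, middle minus basal turn, of each tested member of 12 gene lists (filled where the libraries do not overlap, open where they do), with the list's median as a vertical line. The grey box and line for all genes tested span the 25th to 75th and the 5th to 95th percentile, −0.26 to 0.24 and −0.77 to 1.06. Neurons, vesicle genes and myelin lie to the right, with medians of 2.19, 1.75 and 1.65, and neutrophil genes to the left, with −1.90.

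Interferon-stimulated genes divided the libraries in another way. Of 26, 21 were tested, 0 were higher in both middle and 2 (*Ifi27* and *Gbp2*) in both basal libraries. *Oasl2*, an antiviral protein, had 4.88 and 29.1 in the middle and 31.4 and 11.0 in the basal libraries, and *Ifit3* had 5.76 and 30.7 against 21.4 and 8.61. The second middle and the first basal library were the high ones. *Ifi27* did separate the turns, with 72.8 and 99.99 against 186 and 159.6 (log2 difference −1.004, adjusted p = 0.116), and *Ifi27l2a* and *Bst2* had log2 differences of −0.997 and −0.72. The median of −0.55 ran from −1.23 without the second middle library to 0.27 without the first. Of 26 immediate early genes, which respond within minutes to stimulation or handling, 20 were tested, 9 were higher in both basal and 2 (*Egr2* and *Nr4a2*) in both middle libraries, with a median of −0.31. *Fos* had 6.27 and 2.07 against 1.85 and 31.5, and *Jund*, *Ccn1* and *Ier2* had log2 differences of −0.31, −0.19 and −0.92. *Fos* was by far the highest in the second basal library, and without that library the median of the list was −0.14, against −0.74 without the first basal library.

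Candidate genes for a gradient along the cochlear axis were listed from earlier knowledge of the tissue and include neuronal genes described above. Of 32, 28 were tested, 11 were higher in both middle and 6 in both basal libraries, and the median log2 difference was 0.36, with 0.11 without the first and 0.58 without the second middle library. *Fgf10*, a growth factor of the sensory region, had 17.9 and 18.4 scaled FPKM in the middle and 1.25 and 2.18 in the basal libraries (log2 difference 2.84, standard error 0.505, adjusted p = 0.0959). *Ntrk3*, the receptor of neurotrophin 3, had 10.5 and 10.9 against 5.65 and 6.36 (log2 difference 0.74, adjusted p = 0.146), and *Gria3*, a glutamate receptor subunit, had 8.78 and 12.4 against 3.61 and 4.13. *Aldh1a1* and *Dhrs3*, enzymes of retinoid metabolism, were higher in both basal libraries. *Aldh1a1* had 85.5 and 65.5 against 125 and 127 (log2 difference −0.74) and *Dhrs3* 35.2 and 25.5 against 59.0 and 41.2 (log2 difference −0.70). The retinoic acid receptor gene *Rarb* had 6.28 and 6.61 against 9.38 and 9.32. None of these 6 genes overlapped between the turns, but they were picked from the 28 after their values were seen. The neurotrophin genes themselves, *Ntf3* and *Bdnf*, were low, with at most 3.30 and 2.003.

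Endothelial, muscle and ribosomal protein genes had medians close to that of all genes. Endothelial and pericyte genes had a median log2 difference of −0.05 over 22 of 23, with 2 higher in both middle and 2 in both basal libraries, and *Rgs5*, *Emcn* and *Slc2a1* had 0.40, −0.26 and 0.03. Of 22 skeletal muscle genes, 7 were tested, with a median of −0.07 and 1 member (*Tnnt3*) higher in both basal libraries, and *Pygm*, *Casq1* and *Tnnt1* did not exceed 20.1, 12.5 and 7.38. Of 88 cytosolic ribosomal protein genes, 83 were tested, with a median of −0.12, 1 higher in both middle libraries and 7 in both basal libraries, and the median was −0.39 without the first and 0.19 without the second basal library. The 15 listed transcripts of the mitochondrial genome all had a positive log2 difference with a median of 0.56, but the libraries of 14 overlapped. Without the first basal library the median was −0.13. *mt-Co1*, *mt-Cytb* and *mt-Nd1* had log2 differences of 0.55, 0.35 and 0.65. *mt-Co2* was listed at 0 in the second basal library, where its neighbour *mt-Co1* had 19662, and had 42.3 and 41.4 in the middle and 16.2 in the first basal library. A listed 0 in these files can therefore be a failed estimate.

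Whether the middle minus basal difference was the same in the homozygous cochlea was tested directly, in the same fit. It differed between the genotypes for 1471 genes (10.3%) at an adjusted p under 0.01 and a difference over 2-fold, with the wild-type difference the more positive for 1030 and the more negative for 441. The count was 326 without the first wild-type middle library and 2279 without the second wild-type basal library, and between 464 and 885 without any single one of the others except the first wild-type basal library. Of the 24 genes of smallest p named above, all 24 had the opposite sign in the homozygous libraries, and 23 were among the 1471, the exception being *Cetn4* (−1.37 on the log2 scale, adjusted p = 0.0149). These genes were chosen for their wild-type difference, so the share is not independent of that choice. *Prx* had 17.9 and 20.2 scaled FPKM in the homozygous middle and 128 and 151 in the homozygous basal libraries, a log2 difference of −2.81 against 1.90 in the wild-type. *Pou3f1* had 0.580 and 1.001 against 5.64 and 5.71, a log2 difference of −1.91. The turn that was high in the wild-type was thus the low one in the homozygous libraries. Of the 30 Schwann cell and myelin genes, 19 differed between the genotypes, as did 20 of the 45 neuronal and 25 of the 39 synaptic vesicle genes, each time with the wild-type difference the more positive. Of the 25 fibrocyte genes 1 differed, and of the 18 neutrophil genes 0, although their median was 2.87 in the homozygous libraries. The neutrophil mean log2 level was 6.81 and 2.95 in the homozygous middle and 2.02 and 2.29 in the homozygous basal libraries. That median thus rests mostly on the first homozygous middle library. The lymphocyte and cell cycle lists were also highest in that library, at 5.50 and 4.16.

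Over the 36 lists, 10 had a positive and 26 a negative median in the wild-type. Of the 10, 8 were negative in the homozygous cochlea, and of the 26, 23 were positive. The share of all genes with opposite signs was not counted, so these counts have no background. The lists also share members, and some wild-type medians lay close to 0, such as −0.05 for endothelial and −0.07 for muscle genes. Spiral ganglion neurons had a median of −3.30 in the homozygous against 2.19 in the wild-type libraries, and the supporting cells 1.97 against −0.38. The 5 lists with the same sign in both genotypes were those of the ribbon synapse, skeletal muscle, motile cilia, the axis candidates and the pump subunits. Genotype, the origin of the mice and the labelled turn cannot be told apart in this contrast.

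**Figure D5:**
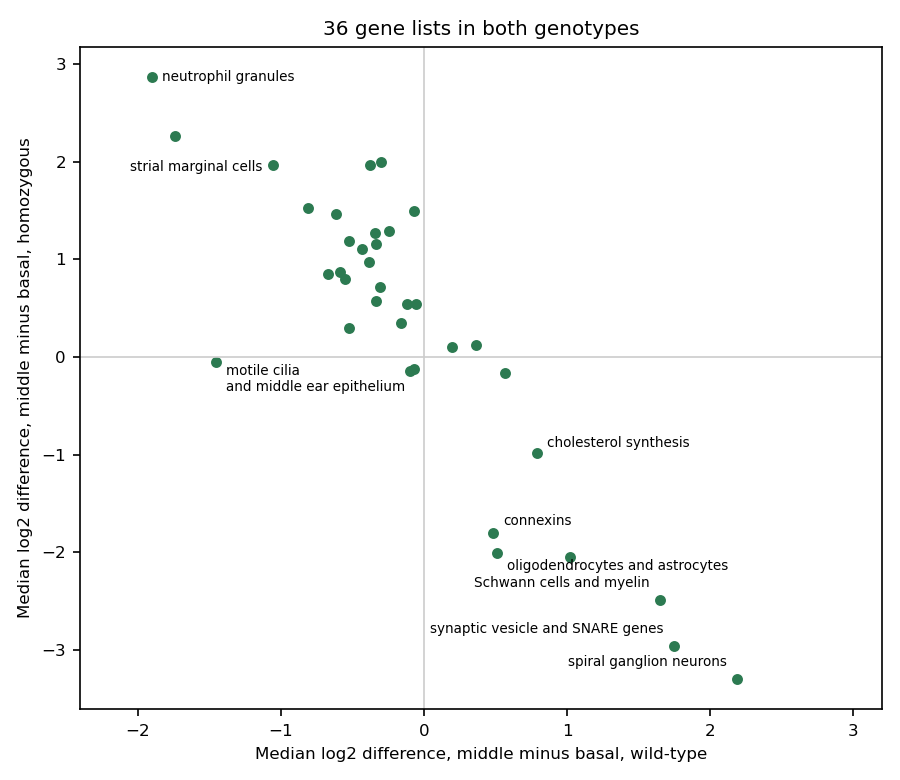
Median log2 difference, middle minus basal turn, of the tested members of 36 gene lists in wild-type (horizontal) and homozygous (vertical) libraries, one point per list with 9 of them named. Of the 36 points, 31 lie up and to the left or down and to the right of the zero lines, where the sign differs between the genotypes.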

How the data were processed

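Cochleae of wild-type and *Gjb2* 35delG homozygous mice at P14 were cut into 3 sections, and RNA-seq was run on 2 biological repeats of each. Per the submitters' processing notes and the study's methods, the authors trimmed reads with fastp 0.20.0, aligned them to mm10 with STAR 2.7.3a, counted them with featureCounts 2.0.0 and derived FPKM with StringTie 2.0. The deposited FPKM, which are not counts, were used here. No sample column of the table was left unassigned. Depth is unknown, and the values did not resolve into whole reads.

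All 12 libraries were scaled by median-of-ratios factors over 11552 genes. Genes with FPKM of 1 or more in at least 2 of the 4 wild-type middle and basal libraries were fitted as log2(scaled FPKM + 1) with limma 3.58.1 (R 4.3.3; 6 groups, 6 residual degrees of freedom, mean-variance trend, Benjamini-Hochberg, two-sided). Fold changes on this scale understate changes of low genes. The thresholds were the study's, 0.01 for the adjusted p and 2 for the fold change. The script was tested on simulated data. Figures were drawn with matplotlib 3.10.9.

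The named genes were the 12 of smallest p in each direction among genes whose libraries did not overlap, with at least 5 scaled FPKM in the higher turn. Other genes were named from the lists, the choice being made after their values were seen. The members of the comparison and the 36 lists were chosen with earlier results of these data known, so no list was given a p. Alternatives covered the pseudocount, filter, scaling, libraries fitted, library weights, a replicate block and each library left out. Whether the repeat numbers pair the turns is not known. The deviations of middle and basal repeats had a Pearson r over genes of −0.31, which cannot show whether sections share an animal. Some members of the lists are not reported here by name.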

Additional observations from a re-analysis of the deposited data

Results flagged for a closer look

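The middle minus basal difference was not the same in wild-type and homozygous cochleae for 1471 genes by the limma test of the difference itself. Among the 24 genes named for the smallest p in the wild-type contrast, 23 were among them, with an adjusted p from 0.00104 to 0.00644. The genes were chosen for their wild-type difference. In the Schwann cell genes, the wild-type log2 difference exceeded the homozygous one by 3.70 for *Pou3f1*, 4.70 for *Prx*, 3.59 for *Dhh* and 3.46 for *Ndrg1*. Of the other genes higher in the wild-type middle turn, it did so by 3.30 for *Gpr155*, 4.17 for *Fam178b*, 3.34 for *Galnt16*, 3.33 for *Prss12*, 2.64 for *Itgb8*, 2.44 for *Tmod4*, 2.43 for *Kank4* and 4.20 for *Plekha4*. Of the genes higher in the wild-type basal turn, the difference between genotypes was −3.52 for *Bricd5*, −2.05 for *B4galt1*, −2.49 for *H2-K1*, −2.16 for *Vamp8*, −3.01 for *S100a11* and −3.32 for *Met*. It was −2.10 for *Ninj1*, −2.17 for *Drc1*, −1.996 for *Rbbp8*, −2.42 for *Nupr1* and −1.17 for *Rhno1*. Within a group of 2 libraries it cannot be told which repeat is the unusual one.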

How the results depend on the processing

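The 0 calls between the turns became 1 (*Pou3f1*) at an adjusted p under 0.05, when the genotype difference gave 3100, and ranged from 0 to 6 with single libraries left out. The genes called without the first basal library included *Prx* (log2 difference 2.32), *Cfap126* and *mt-Co2*. Of these, *mt-Co2* was listed at 0 in the second basal library, which remained, and *Cfap126* was highest there. The genes called without the second basal or second middle library, *mt-Ts1* and *Gm20716*, were likewise listed at 0 in a library that remained. In these fits the lone library was assumed to vary like the other groups. Genes at an unadjusted p under 0.05 and a fold change over 2 numbered 417 to 1148 in the middle and 136 to 427 in the basal direction, and genotype differences 326 to 2279. The medians ranged from 1.04 to 2.96 for neurons, 1.11 to 1.70 for Schwann cells, −0.93 to −0.29 for hair cell identity and −2.64 to −1.09 for neutrophils. A pseudocount of 0.1 gave 305 genes in the basal direction and a mean distance between the turns of 124, and one of 0.01 gave 296, 143 and a neuron median of 3.70. A filter of 5 FPKM gave 94 and 76.1, and no filter 424 genotype differences. The replicate block gave 0 calls, 693 and 180 genes and 1065 genotype differences, and changed no other call. Crossing the pairing, an alternative chosen after the data were seen, gave 1 call, *Cldn19*. Of the values of the named genes under all alternatives, 667 kept their direction and side of the threshold, 2 passed it and 0 reversed. Since these genes were chosen for libraries that do not overlap, leaving out a library or changing the pseudocount could not reverse their sign. Of the values of 32 lists, 377 moved by no more than the spread of the list's mean level between repeats, and 39 by more. The lists whose ranges are given above were not counted among these. A change of sign could lie within that spread. Osteoblast and osteocyte genes, −0.43 with all libraries and 0.85 without the second basal library, were counted among the 377. Under the filter of 5 FPKM the median was −0.12 for hair cell identity, −0.28 for the ribbon synapse, 1.03 for connexins, −1.73 for erythroid and 0.54 for muscle genes. Without a filter it was −0.04 for connexins, −0.17 for erythroid, −0.73 for lymphocyte and −0.62 for strial intermediate cell genes. The pseudocounts of 0.1 and 0.01 gave −1.11 and −1.13 for hair cell identity, −0.88 and −0.91 for the cell cycle and −1.55 and −1.75 for erythroid genes. The cause of these changes was not tested. With 2 libraries a turn, unknown sequencing depth and a basal turn whose repeats differ, 0 calls do not show that the turns are alike. How small a difference could be detected was not tested. In the same fit and at the same thresholds, 797 genes were called between the homozygous middle and basal libraries.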
